A study of Mus musculus with 6 samples.

Results

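The synaptotagmin-like genes Sytl1 to Sytl5 and their partners in RAB27-dependent granule release were examined in thymic lymphocytes of mice with and without KAP1. All array probes annotated to Sytl1, Sytl2, Sytl3, Sytl4, Sytl5, Rab27a, Rab27b, Unc13d, Stx11 or Stxbp2 were taken, which gave 19 of the 45281 probes, and 9 of these entered the test. No probe carried the symbol Sytl1, so 9 of the 10 genes were measured. The knockout group held 3 CD4-Cre/Kap1flox mice, in which Kap1 (gene symbol Trim28) is deleted in the T lineage. The control group held 3 littermates described as wt/Kap1flox, so the floxed allele is named for both groups. All mice were 8 to 12 weeks old and of the mixed strain C57/bl6-129sv. How many floxed copies the controls carried is not stated in what was used here. The CD4-Cre transgene becomes active in thymocytes that bear CD4 and CD8 together, and no sort of the cells is named, so earlier thymocytes and other thymic cells can be present. Each Illumina bead array stands for 1 mouse.

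RAB27 proteins are small GTPases that sit on lysosome-related granules and bring them to the plasma membrane. Synaptotagmin-like proteins bind RAB27 through a domain at their amino end and bind membrane lipids through a pair of C2 domains, so they tether a granule to its target membrane. In cytotoxic lymphocytes the granule is then primed by Munc13-4 (Unc13d) and fused with the help of syntaxin 11 (Stx11) and its chaperone Munc18-2 (Stxbp2). In humans, inherited loss of RAB27A, UNC13D, STX11 or STXBP2 impairs the killing of target cells by lymphocytes. KAP1 represses transcription where it is brought to chromatin by KRAB zinc finger proteins.

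Sytl3 was higher in the knockout on all of its probes. None of its measured partners passed the test, which was not applied to Sytl3, so these statements rest on unlike measures. Sytl3 was chosen by its difference between knockout and control on the same arrays, so its values are a description and carry no test. Averaged over its 3 probes that were detected on at least 3 of the 6 arrays (detection p under 0.01), the normalized log2 signal of Sytl3 was 9.83, 9.44 and 10.10 in knockout replicates 1, 2 and 3. In control replicates 4, 5 and 6 it was 8.59, 8.69 and 8.56. Every knockout array lay above every control array, and the lowest knockout array stood 0.75 above the highest control array. The group means were 9.79 ± 0.33 and 8.61 ± 0.07 (SD, n = 3 each), a log2 difference of 1.18 with an SE of 0.23, or 2.26-fold. Values are log2 of the background-corrected signal plus 16, equalized between arrays by quantiles, so a fold is understated for dim probes. The arrays measured RNA of the whole preparation, so more cells of a type that holds Sytl3 RNA and more of it per cell cannot be told apart.

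The start region of Sytl3 is shown beside that of Rab27a, the gene of the GTPase that its product binds. Both are RefSeq sequences of assembly GRCm38.p6, from 250 bases before to 50 bases after the annotated start, 5′ to 3′ on the gene's own strand, with each CG in capitals. The Sytl3 region is chr17:6658809-6659108 on the plus strand, and the Rab27a region, the first of its annotated starts, is chr9:73044560-73044859 on the plus strand.
Sytl3: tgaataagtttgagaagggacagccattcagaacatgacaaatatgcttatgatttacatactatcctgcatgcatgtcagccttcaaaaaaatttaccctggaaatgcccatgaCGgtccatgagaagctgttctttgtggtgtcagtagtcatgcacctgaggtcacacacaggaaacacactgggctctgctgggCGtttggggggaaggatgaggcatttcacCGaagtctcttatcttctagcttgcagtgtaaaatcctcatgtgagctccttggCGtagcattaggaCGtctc
Rab27a: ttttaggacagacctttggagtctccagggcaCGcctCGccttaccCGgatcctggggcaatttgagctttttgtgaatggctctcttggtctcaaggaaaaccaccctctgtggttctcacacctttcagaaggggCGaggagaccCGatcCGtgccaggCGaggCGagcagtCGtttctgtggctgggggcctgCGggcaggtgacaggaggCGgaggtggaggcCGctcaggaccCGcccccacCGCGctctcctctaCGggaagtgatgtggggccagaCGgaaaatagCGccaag
The Sytl3 region holds 5 CG and 46.0% G or C, against 18 CG and 61.3% for the first start of Rab27a. The second annotated start of Rab27a has 6 CG and 51.3% G or C, close to Sytl3, so the contrast depends on the start. Over 32851 start regions of the same length the median was 7 CG, 43.6% held at most 5, and 71.9% held at most 18. CG reads the same on both strands, so each is counted once. Sytl5 (1 CG) was below the median, Sytl1 (5 CG) was also below it, Sytl4 (7 CG) was at it, and Stx11 (27 CG) and Stxbp2 (22 CG) were above it. These counts describe the letters in the window, and no methylation or binding was measured.

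**Figure D1:**
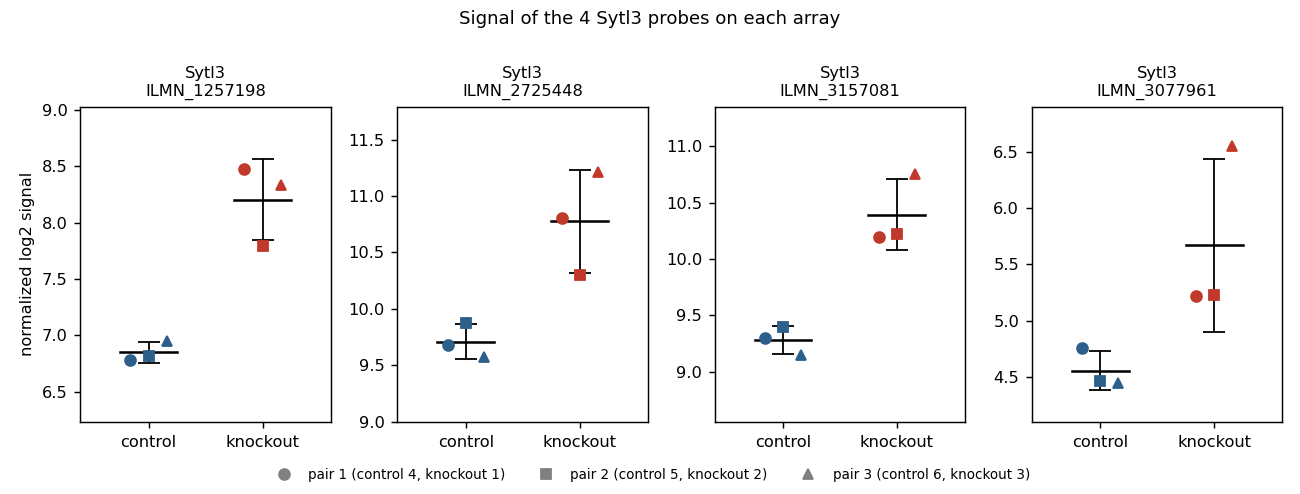
Normalized log2 signal (vertical axis, its own range of equal height in each panel) of the 4 Sytl3 probes in the control and knockout groups. Points are single arrays, marker shape gives the pair inferred from the array numbers in the file header, and bars are mean ± SD of 3 arrays. On each probe the knockout arrays sit above the control arrays, and ILMN_3077961 was detected on 1 array alone.

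Sytl3 was seen by 4 probes, which the array annotation ties to 3 transcript records. Probe ILMN_1257198, tied to a cDNA clone, read 8.48, 7.79 and 8.33 in the knockout and 6.78, 6.81 and 6.95 in the controls on the log2 scale. Its difference was the largest of the 4 probes, 1.35 with an SE of 0.24, or 2.55-fold, and was 0.88 without background correction. Probe ILMN_2725448 read 10.81, 10.30 and 11.22 in the knockout and 9.68, 9.88 and 9.57 in the controls, a difference of 1.07 with an SE of 0.27, or 2.09-fold. In the deposited signals before normalization, this probe ran from 1295 to 2624 in the knockout and from 534.4 to 1087 in the controls, so its groups were apart there too. Probe ILMN_3157081 read 10.19, 10.23 and 10.75 in the knockout and 9.30, 9.39 and 9.15 in the controls, a difference of 1.11 with an SE of 0.23, or 2.16-fold. Probe ILMN_3077961, tied to the same transcript as ILMN_3157081, was detected on knockout replicate 3 alone, at 6.55. Knockout replicates 1 and 2 read 5.22 and 5.23 on it with detection p of 0.0256 and 0.0299, and the controls read 4.45 to 4.76. The spread among the knockout arrays did not follow 1 order over the probes: replicate 3 was highest on 3 of the 4 probes and replicate 1 on ILMN_1257198.

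The share of all tested probes with a rise of at least 2-fold is given as background. Of 14651 tested probes, 0.683% were at least 2-fold higher in the knockout, and 0.491% were also without overlap between the groups. The 3 tested Sytl3 probes ranked 29, 64 and 77 by the size of their rise. Since those values chose the gene, nothing is read from its ranks or from how uncommon such a rise was.

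The signal of the targeted gene was lower on the 3 knockout arrays than on any control. Trim28 had a log2 signal of 10.83, 11.01 and 10.23 in knockout replicates 1, 2 and 3 and of 12.39, 12.25 and 12.59 in control replicates 4, 5 and 6, 3.30-fold lower in the knockout (limma adjusted p = 0.23). With a trended and robust prior the limma adjusted p was 0.031, past the threshold. This was 1 of 17 alternatives, and under the other 16 the threshold was missed. It was not examined whether the probe lies in the deleted part. Sytl3 ran opposite to Trim28 within the knockout group: replicate 3 had the lowest Trim28 and the highest mean Sytl3, and replicate 2 had the highest Trim28 and the lowest Sytl3. The controls also ran in opposite order, over a narrow span for Sytl3 of 8.56 to 8.69. With 3 arrays per group this is an order and no tested relation. The opposite order was seen in the knockout group under 5 of 6 ways of scaling the arrays and in the controls under 4 of 6.

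**Figure D2:**
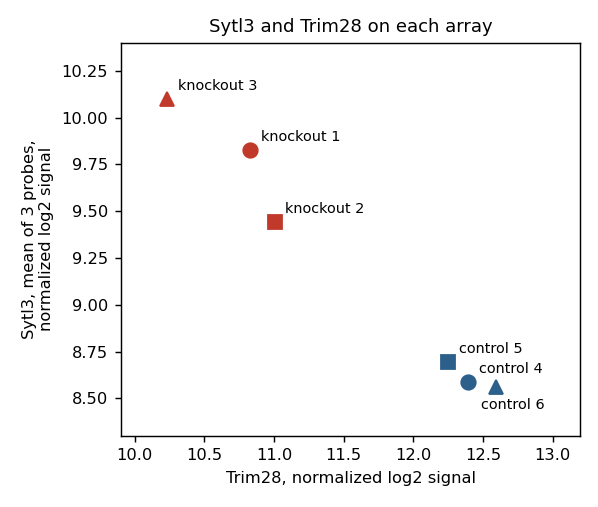
Normalized log2 signal of Trim28 (horizontal axis) and mean normalized log2 signal of the 3 tested Sytl3 probes (vertical axis) on each of the 6 arrays. The groups are apart on both axes, with knockout replicate 3 at 10.23 for Trim28 and 10.10 for Sytl3.

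The other synaptotagmin-like genes gave little signal or no difference past the test. Sytl2, whose product tethers granules in cytotoxic T cells together with RAB27A, was measured by probe ILMN_3127335. It read 8.78, 8.37 and 8.25 in the knockout and 8.93, 8.07 and 8.52 in the controls. The groups overlapped, and the difference was -0.04 with an SE of 0.28 (95% interval -0.67 to 0.59, limma adjusted p = 0.998). The other 3 Sytl2 probes, tied to other transcripts, were detected on 0 arrays. Sytl4, which encodes granuphilin, a docking factor of insulin granules, and Sytl5 each had 1 probe, detected on 0 arrays. A probe below detection gives only a bound, so no fold is given for them.

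Among the GTPases, Rab27a was detected in both groups with no difference past the test. Its probe ILMN_2614966 read 10.93, 10.67 and 11.21 in the knockout and 10.76, 10.95 and 11.20 in the controls, and the groups overlapped. The difference was -0.03 with an SE of 0.23 (95% interval -0.56 to 0.50, limma adjusted p = 0.998). All 3 probes of Rab27b, the closest relative of Rab27a, were detected on 0 arrays. Over the 9 member probes detected on 0 arrays, which belong to 5 genes, the log2 signal ran from 4.30 to 4.93 on any array. The 9 tested member probes, of 6 genes, were detected on all 6 arrays.

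The priming and fusion genes were expressed in both groups. Unc13d had 2 probes whose differences had opposite signs. On ILMN_2502798 it read 8.64, 8.56 and 8.82 in the knockout and 8.35, 8.50 and 8.43 in the controls. These groups did not overlap, and the difference was 0.25 with an SE of 0.20 (95% interval -0.20 to 0.70, limma adjusted p = 0.998). On ILMN_2913913 it read 8.77, 9.01 and 9.14 in the knockout and 9.001, 8.71 and 9.42 in the controls, a difference of -0.07 with an SE of 0.24 (95% interval -0.63 to 0.49, limma adjusted p = 0.998). Both probes are tied to the same transcript, so their disagreement leaves no direction for the gene.

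Stx11, which encodes the target-membrane SNARE of the lytic granule, read 7.17, 7.23 and 6.50 in the knockout and 7.15, 6.42 and 6.47 in the controls on probe ILMN_2734340. Knockout replicates 1 and 2 and control replicate 4 were high and the other 3 arrays low, so the groups overlapped. The difference was 0.29 with an SE of 0.30 (95% interval -0.39 to 0.96, limma adjusted p = 0.998), and the other Stx11 probe was detected on 0 arrays. On probe ILMN_2657728 Stxbp2 read 11.47, 11.67 and 11.97 in the knockout and 11.75, 11.59 and 11.75 in the controls, and the groups overlapped. Its difference was 0.00 with an SE of 0.22 (95% interval -0.49 to 0.49, limma adjusted p = 0.998).

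**Figure D3:**
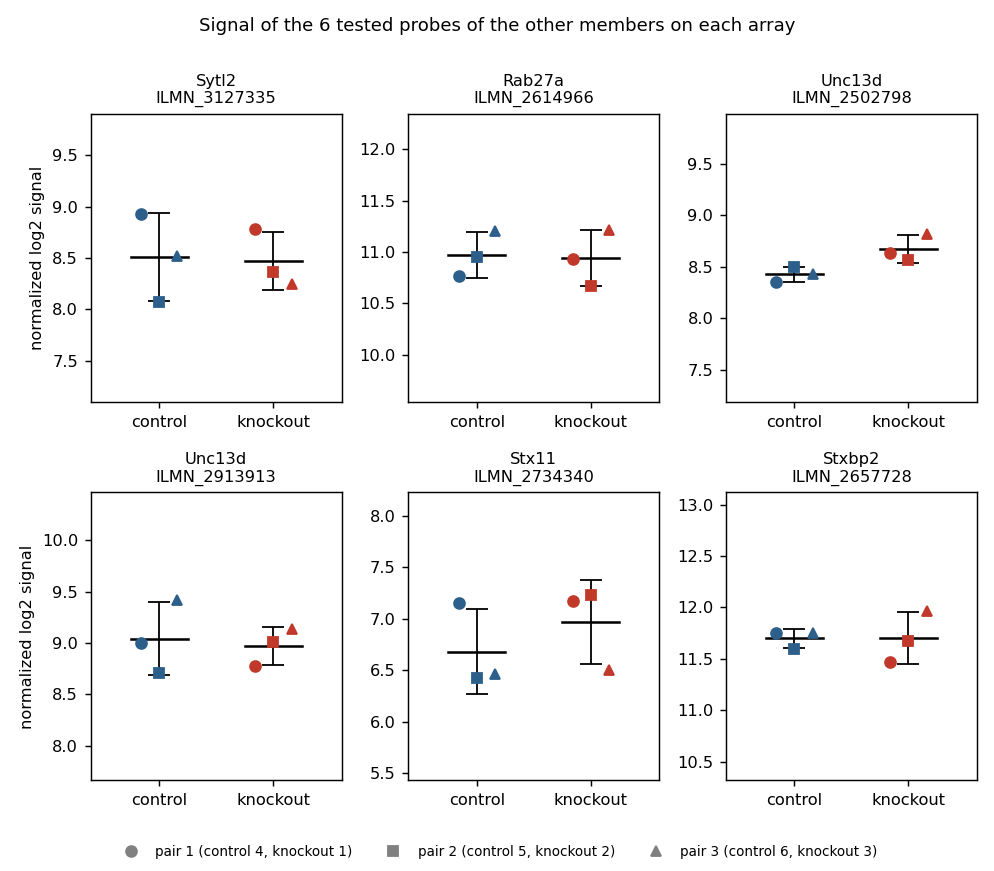
Normalized log2 signal (vertical axis, its own range of equal height in each panel) of the 6 tested probes of Sytl2, Rab27a, Unc13d, Stx11 and Stxbp2. Points are single arrays with marker shape for the inferred pair, and bars are mean ± SD of 3 arrays. The groups overlap on every probe except Unc13d ILMN_2502798.

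Of the 6 tested probes of the 5 partner genes, 0 passed the test (limma, adjusted p under 0.05 over all tested probes) and 0 had an unadjusted p under 0.05. Across all tested probes 0.0273% passed, 4 of 14651, and 3.54% had an unadjusted p under 0.05. Of the partner probes 1 of 6 had the knockout arrays wholly above the controls and 0 wholly below, against 4.48% above and 7.64% in either direction among all tested probes. A p that misses the threshold does not show that a partner stayed level, and the intervals bound each change. Their upper bounds ran from 0.49 to 0.96, the highest being that of Stx11.

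**Figure D4:**
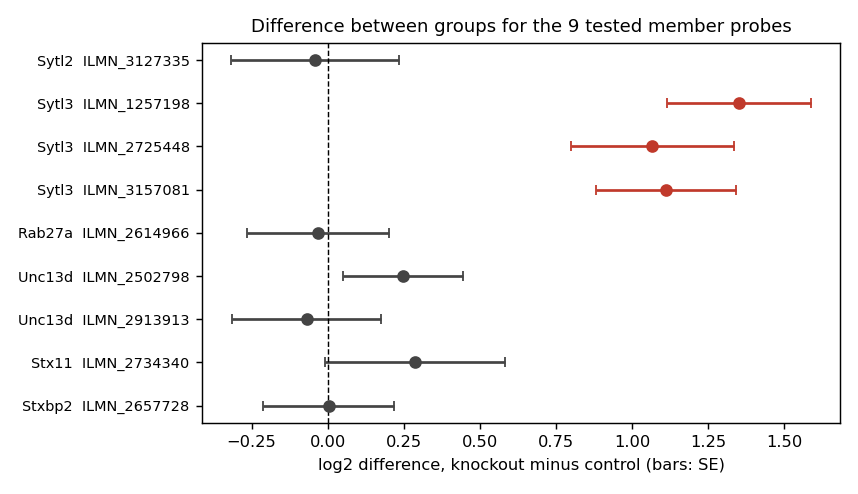
Log2 difference, knockout minus control (horizontal axis), of the 9 tested member probes, with bars for the SE from the limma fit. The Sytl3 probes (red) lie at 1.07 to 1.35 and the partner probes between -0.07 and 0.29.

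On each array the level of Sytl3 relative to its partners was also compared, which removes whatever scales a whole array. The log2 ratio of Sytl3 to Rab27a was higher in the knockout by 1.21, and the 3 knockout arrays lay above the 3 controls. The ratio to Stxbp2 was higher by 1.17, that to Sytl2 by 1.22, and those to the Unc13d probes by 0.93 and 1.25, each again without overlap. The ratio to Stx11 was higher by 0.89, and here the groups overlapped, since knockout replicate 2 was lower than control replicate 5. These ratios contain the values that chose Sytl3 and are a description of unequal change, not a test.

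The profile of Sytl3 over the arrays was matched with those of all other tested probes, as the root mean square difference between centred log2 profiles over 6 arrays. The nearest 6 of 14648 probes lay at 0.16 to 0.20, where the median was 0.68. They were Eipr1 (ILMN_2903639, 0.16), Trmt1l (ILMN_2697918, 0.17), a probe without a gene symbol here (ILMN_1247154, 0.17), Itga3 (ILMN_2616164, 0.18) and both tested probes of Cmah (ILMN_2606825 and ILMN_2626252, each 0.20). Eipr1 read 12.24, 11.46 and 12.53 in the knockout and 10.82, 11.10 and 11.07 in the controls. Itga3, which encodes an integrin chain, passed the detection limit in 3 of 3 knockout mice and in 0 of 3 controls. Both Cmah probes passed it in 3 of 3 knockout mice. In the controls ILMN_2606825 passed it in 1 of 3 and ILMN_2626252 in 0 of 3. The Itga3 and Cmah probes thus entered the comparison mainly through the knockout. Without background correction Itga3 differed by 0.41, down from 1.19, and the Cmah probes by 0.31 each, down from 0.84 and 0.88. Likeness to a gene chosen for its rise selects probes that are higher in the knockout, so no test is given for them. The 6 partner probes lay at 0.48 to 0.72, with Unc13d ILMN_2502798 at rank 621 as the nearest and Sytl2 at rank 9061 as the farthest.

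The nearest 5 named genes on each side of Sytl3 in the annotation of GRCm38.p6 include Ezr, Dynlt1c, Dynlt1f and Tmem181c-ps. Of these 10 neighbours 1 had a probe under its symbol. That gene, Tmem181c-ps, a transcribed pseudogene, read 8.94, 8.43 and 9.28 in the knockout and 8.85, 8.78 and 8.79 in the controls (difference 0.08 with an SE of 0.25, limma adjusted p = 0.998). The groups overlapped there.

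Other genes of the exocytosis pathway were followed through 5 lists of 98 genes, of which 54 had a tested probe. None of the 54 passed the test in either direction (limma adjusted p of at least 0.998), where 0.0273% of all tested probes passed. By limma 2 of the 54, or 3.7%, had an unadjusted p under 0.05, near the 3.54% of all tested probes. Of the 54, 37 were higher and 17 lower in the knockout, where 48.9% of all tested probes were higher. No gene of the 5 lists differed by 2-fold or more.

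Among other RAB27 effectors and regulators, 5 of 12 genes were tested, 3 higher and 2 lower, with a median difference of 0.03 against -0.01 for all tested probes. Myo5a, the myosin motor that carries RAB27A-bearing melanosomes, differed by -0.56 on probe ILMN_1250286 and by 0.16 on its other tested probe. Madd, an exchange factor for RAB GTPases, differed by -0.15 and -0.21 on its probes. Rabggta and Rabggtb, the subunits of the enzyme that attaches lipid anchors to RAB proteins, differed by 0.12 and 0.06 on their brightest probes. The effector genes Mlph, Myrip, Exph5, Rph3a and Rph3al had no tested probe.

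Other fusion machinery had 17 of 24 genes tested, 11 higher and 6 lower, with a median of 0.10. Vamp2, a vesicle SNARE, read 9.36, 9.08 and 9.91 in the knockout and 9.75, 10.11 and 10.03 in the controls, a difference of -0.51. The other vesicle SNARE named by the rule, Vamp8, differed by 0.22, and by 0.34 with overlapping groups on its other tested probe. The syntaxin genes Stx8 and Stx6 differed by 0.25 and 0.17. For Stx8 the 4 other tested probes ran from -0.37 to 0.36, and the other Stx6 probe differed by -0.087, so both directions depended on the probe. Without knockout replicate 1 Stx6 differed by 0.038, and without knockout replicate 2 Stx8 differed by 0.11. Of 20 synaptotagmin and Doc2 genes, calcium sensors of exocytosis, 2 were tested: Syt13 at -0.54 and Syt7 at -0.26. Syt7 ranged from 4.59 to 7.25 within the knockout group alone.

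The contents of granules had 11 of 21 genes tested, 9 higher and 2 lower, with a median of 0.18. Ctsd, the lysosomal protease cathepsin D, read 6.42, 5.95 and 6.16 in the knockout and 5.47, 5.51 and 5.22 in the controls (difference 0.77, limma unadjusted p = 0.00664). This difference was 0.29 without background correction and 1.07 with an offset of 1. It was detected on 3 knockout arrays and 1 control array, so it entered the test mainly through the knockout. Srgn, the proteoglycan core on which granule proteases are packed, read 9.29, 9.86 and 9.65 in the knockout and 8.98, 9.04 and 8.67 in the controls (difference 0.70, limma unadjusted p = 0.0158). Its other tested probe differed by 0.55 with overlapping groups. Ctsw, a cysteine protease gene of cytotoxic lymphocytes, differed by 0.62 and Nkg7, a granule membrane protein gene, by 0.44, and without knockout replicate 2 they differed by 0.21 and -0.019. Prf1, which encodes the pore-forming perforin and was picked for mention once its values were known, read 10.12, 10.53 and 10.47 in the knockout and 10.05, 10.30 and 10.53 in the controls, a difference of 0.08. No granzyme gene except Gzmm had a tested probe.

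Genes for building lysosome-related organelles had 19 of 21 members tested, 14 higher and 5 lower, with a median of 0.06. Bloc1s1, Bloc1s3 and Bloc1s6, subunits of a sorting complex, differed by 0.35, 0.31 and 0.27, and Ap3b1, an adaptor subunit, by 0.22. When 1 array was left out, Bloc1s1 ran from 0.077 (without knockout replicate 2) to 0.63, Bloc1s3 from 0.057 (without control replicate 6) to 0.61 and Ap3b1 from 0.083 (without knockout replicate 1) to 0.41. Of these, Bloc1s6 alone had groups without overlap. On its other tested probe, detected on 3 knockout arrays and 1 control array, Bloc1s3 differed by 0.59. Ap3b1 differed by 0.24 on its other tested probe, and the groups overlapped on both.

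**Figure D5:**
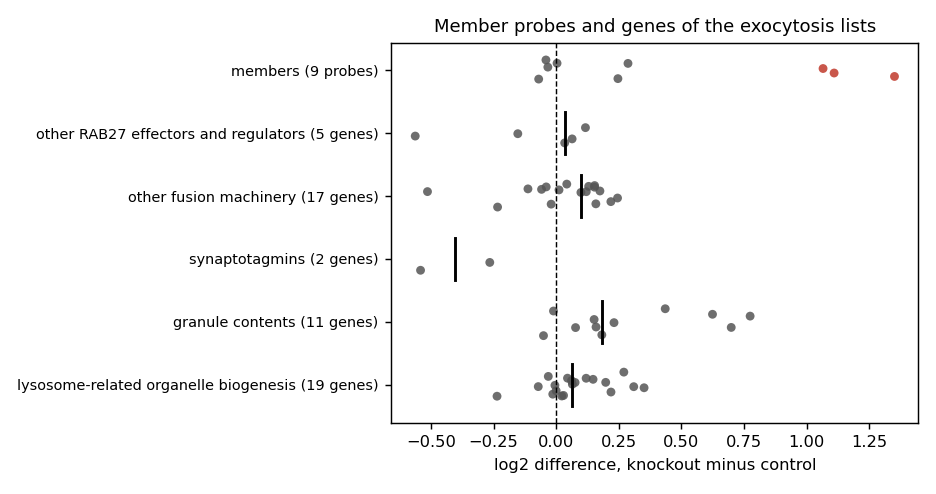
Log2 difference, knockout minus control (horizontal axis), of the 9 tested member probes and of the genes of 5 exocytosis lists, each gene by its brightest tested probe. Black bars are list medians, from -0.40 for the synaptotagmins to 0.18 for granule contents, and the Sytl3 probes (red) lie above every listed gene.

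The makeup of the preparations was checked with marker genes, as sums of the normalized signal over the tested genes of a list. T lineage and double-positive thymocyte markers, with 11 of 13 genes tested, summed to 102137 to 122319 in the knockout and 109623 to 114767 in the controls. Cd8a had no tested probe, while Cd8b1 was detected on all 6 arrays. Mature single-positive markers (6 of 8 tested) summed to 15374, 21190 and 16469 in knockout replicates 1, 2 and 3 and to 17281, 12471 and 13545 in the controls. These sums overlap and rest mostly on the bright Cd52 (difference 0.22), while 6 of the 6 tested genes were higher, with a median difference of 0.76. By limma 0 of them passed the test and 3 had an unadjusted p under 0.05, against 0.0273% and 3.54% of all tested probes. Among the brightest, Itgb7 differed by 0.85 and Il7r by 0.34, and Itgae and Ccr7, picked once their values were known, were 2.30-fold and 2.20-fold higher. NK and innate-like T cell markers (4 of 12 tested, with Ncr1, Klrb1c, Eomes and Tbx21 among those not tested) summed to 260.0, 730.8 and 229.6 in the knockout and 199.7 to 258.0 in the controls. Of these, 4 of 4 were higher, and their mean difference was 0.56, or 0.10 without knockout replicate 2. Knockout replicate 2 was the highest array on both lists, and also on the dendritic cell and macrophage, B cell and mast cell lists below.

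Dendritic cell and macrophage markers had 9 of 14 genes tested, with Itgax, Flt3, Adgre1 and C1qa not tested. By limma 0 passed the test and 5 had an unadjusted p under 0.05, as did 3.54% of all tested probes. In the knockout 9 of the 9 tested genes were higher, with sums of 7850 to 14022 against 4357 to 5947 in the controls. Only H2-Aa, H2-Ab1, H2-Eb1 and Cd74, the 4 brightest genes of the list, had groups without overlap. Which cells held the RNA of these 4 genes was not measured. The groups overlapped for Mpeg1, Lyz2, Csf1r, C1qb and Siglech, which differed by 0.85, 0.55, 0.54, 0.28 and 0.10. The summed signal of granule contents was also higher in the knockout, at 15548 to 16632 against 13024 to 14445 in the controls. The brightest genes of the granule list, Ctsb, Lamp2 and Lamp1, weigh most in this sum and differed by 0.18, -0.01 and 0.16. Part of this list, Ctsd and Srgn among them, is also expressed by macrophages and dendritic cells, and their part in these values was not tested. B cell markers (2 of 8 tested) summed to 726.5 to 1254 in the knockout and 522.1 to 758.1 in the controls, with 2 of 2 higher. Neutrophil markers (6 of 8 tested) summed to 836.2 to 3009 and 1585 to 4189, with 6 of 6 lower and a median difference of -0.42. Mast cell and basophil markers (1 of 6 tested, Fcer1a and Mcpt8 not) were at 49.1 to 152.3 and 49.6 to 61.6. Erythroid markers (1 of 6 tested) were at 184.9 to 974.8 and 239.6 to 1158, and thymic epithelial markers (2 of 8 tested, Foxn1 and Aire not) at 225.6 to 260.7 and 208.6 to 293.8. Of 7 platelet and megakaryocyte markers 0 were tested. The part of these cells in the Sytl3 difference was not tested.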

How the data were processed

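Expression was measured in thymic lymphocytes of 3 knockout and 3 control mice. The deposited probe intensity values were linear and, per the file headers, came before any normalization, with a detection p-value for each. The submitters' processing notes name BeadStudio 3.1.3, without settings. The authors' value table of the same arrays holds linear intensity values of unstated processing, whose medians ran from 6.43 to 6.50 on the linear scale. These values rank the probes as the raw signals of the same array do. The value table was used as an alternative.

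Signals were background-corrected and quantile-normalized with neqc (limma 3.58.1, R 4.3.3, offset 16). Probes with a detection p under 0.01 on at least 3 of 6 arrays, 14651, were tested with lmFit and eBayes and adjusted by Benjamini-Hochberg at 0.05, two-sided. Between 30.9% and 33.5% of probes were detected per array, and the number of arrays limits the precision (median SE 0.257). Probes were named from the array annotation (34885 with 1 symbol, 18 with several, 10378 with none), with current symbols from GRCm38.p6.

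The members and lists were chosen with earlier results of these data known. Named were Trim28, the members, up to 4 list genes with the smallest p, neighbours of Sytl3 and the 6 probes nearest its profile. Start regions were taken for 7 of 10 members. Regions on chromosome 18, where Rab27b lies, were left out.

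The file header gives each array a number, and neighbouring numbers join knockout replicates 1, 2 and 3 with control replicates 4, 5 and 6. Deviations from the group means correlated by 0.128, 0.164 and 0.518 within these inferred pairs, against up to 0.317 for other combinations, and the pairs entered an alternative as a block. The test was checked on simulated data. Alternatives changed the offset, background correction, normalization, filter, prior, weights, block and arrays used.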

Additional observations from a re-analysis of the deposited data

How the results depend on the processing

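Sytl3 stayed higher in the knockout under all 18 alternatives, with a log2 difference of 0.96 to 1.31 over processing choices and 1.02 to 1.35 when 1 array was left out. The lowest value came without background correction. The count of partner probes past the threshold was 0 and that of pathway genes 0 under all 17 alternatives. The replicate block changed no call of a member and gave 2 probes past the threshold among all tested, against 4. That count was 2 without background correction, 8 with median scaling and 1 when dim probes were kept, and 0 to 1 when an array was left out; the cause was not tested. Median scaling moved the median of all tested probes to 0.12, from -0.01. A cohort block from the header numbers, chosen after seeing the data, gave 4.

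Signs of the small differences were not stable. Of 102 values for the 6 partner probes, 15 changed sign. With median scaling Sytl2 was at 0.087, Rab27a at 0.097 and Unc13d ILMN_2913913 at 0.071, and with array weights these were at 0.21, 0.041 and 0.045 and Syt7 at 0.28. With 1 array left out, Sytl2 ran from -0.26 to 0.17, Rab27a from -0.17 to 0.10, Unc13d ILMN_2913913 from -0.23 to 0.12, Stxbp2 from -0.13 to 0.12, Madd from -0.58 to 0.14, Rabggta from -0.0076 to 0.25, Rabggtb from -0.088 to 0.28, Syt7 from -1.11 to 0.22 and Nkg7 from -0.019 to 0.73. Signal near background limits Sytl4, Sytl5 and Rab27b, for which no difference could be measured.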
